A study of Mus musculus with 18 samples.

Results

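Metallothioneins and zinc transport in mouse liver are described here by 7 genes: Mt1, Mt2, Mtf1, Slc39a14, Slc39a4, Slc30a1 and Slc30a10. They were chosen by gene symbol, and all 7 were present in the gene count tables of all 3 RNA-Seq kits. They are 7 of 21018 genes that occur in at least 1 table, and of 16184 that occur in all 3. The study compared 3 library preparation kits on the same liver RNA. Pico is a stranded kit for total RNA, V4 an unstranded poly(A) kit and TruSeq a stranded poly(A) kit. The mice were C57/B6J males aged 12 weeks, with 3 mice per treatment. One group (mice I9579, I9582 and I9583) received IL-1β by intraperitoneal injection at 20 µg/kg, and the control group (mice U9574, U9575 and U9576) received saline. All livers were taken 4 h after injection. One liver RNA per mouse served all the kits, which gives 18 libraries, so the kits repeat the measurement of 6 mice and do not add mice. Pico libraries were made from 1.7 to 2.6 ng of RNA, V4 libraries from 0.8 to 1.3 ng and TruSeq libraries from 200 ng. Whole liver was used, so RNA of all liver cell types is pooled in each value.

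Metallothioneins are small proteins rich in cysteine that bind zinc, copper and cadmium, and Mt1 and Mt2 are the forms made in liver. The zinc-sensing transcription factor encoded by Mtf1 binds metal response elements in the promoters of metallothionein genes and of the zinc exporter gene Slc30a1. ZIP carriers, of the Slc39 family, move zinc into the cytosol, and ZnT carriers, of the Slc30 family, move it out of the cytosol or into organelles. In the acute-phase response the liver is known to take up zinc from plasma, a process in which the importer encoded by Slc39a14 takes part.

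Mt1 (ENSMUSG00000031765) lies on the + strand of chromosome 8 at chr8:96702989-96704225 in mm9, the build of the tables, and Mt2 (ENSMUSG00000031762) lies upstream of it on the same strand at chr8:96696518-96697467. Mt3 and Mt4 occupy the same stretch, at chr8:96676507-96678048 and chr8:96661104-96662931. The longest run of bases that the longest Mt1 and Mt2 transcripts share was 20 bases, which is shorter than a read in any kit (125 or 150 bases). Outside its own locus, the best match of Mt2 in the genome with at least 100 aligned bases was 87.9% identical over 388 bases on chromosome 12, and that of Mt1 was 80.3% identical over 223 bases on chromosome 14. The other members are Mtf1 (ENSMUSG00000028890, chr4:124479348-124527044, + strand), Slc39a14 (ENSMUSG00000022094, chr14:70703274-70751232, - strand), Slc39a4 (ENSMUSG00000063354, chr15:76442815-76447322, - strand), Slc30a1 (ENSMUSG00000037434, chr1:193730646-193737126, + strand) and Slc30a10 (ENSMUSG00000026614, chr1:187278727-187292641, + strand).

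Promoter windows of 5 of the 7 members were matched by symbol in a RefSeq table on GRCm38.p6, with Slc39a14 and Slc39a4 unmatched. A window holds 250 bases before the annotated start and 50 after it. The letters of the 5 windows are identical in mm9. The core of the metal response element was searched as TGCACNC or TGCGCNC on both strands, since it is the site bound by the factor that Mtf1 encodes. The 250 bases before the start are shown 5′ to 3′ for both metallothioneins and both zinc and manganese exporters, from chr8:94178839-94179088 for Mt1, chr8:94172368-94172617 for Mt2, chr1:191906531-191906780 for Slc30a1 and chr1:185454598-185454847 for Slc30a10, all on the + strand. Capitals mark the motif on either strand.
Mt1: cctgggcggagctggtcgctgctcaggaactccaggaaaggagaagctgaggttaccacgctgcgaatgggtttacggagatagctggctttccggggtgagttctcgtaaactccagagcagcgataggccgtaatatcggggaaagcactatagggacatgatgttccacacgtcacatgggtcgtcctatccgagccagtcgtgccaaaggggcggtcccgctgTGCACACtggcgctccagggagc
Mt2: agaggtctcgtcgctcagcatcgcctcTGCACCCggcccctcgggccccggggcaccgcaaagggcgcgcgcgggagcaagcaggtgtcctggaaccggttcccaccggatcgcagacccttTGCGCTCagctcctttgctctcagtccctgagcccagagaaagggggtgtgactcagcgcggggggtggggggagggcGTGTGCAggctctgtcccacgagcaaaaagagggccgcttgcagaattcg
Slc30a1: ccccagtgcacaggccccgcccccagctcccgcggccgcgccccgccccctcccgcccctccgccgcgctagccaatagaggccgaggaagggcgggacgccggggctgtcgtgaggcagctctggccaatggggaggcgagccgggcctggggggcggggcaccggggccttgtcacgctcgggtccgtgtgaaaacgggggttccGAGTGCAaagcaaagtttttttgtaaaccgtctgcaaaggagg
Slc30a10: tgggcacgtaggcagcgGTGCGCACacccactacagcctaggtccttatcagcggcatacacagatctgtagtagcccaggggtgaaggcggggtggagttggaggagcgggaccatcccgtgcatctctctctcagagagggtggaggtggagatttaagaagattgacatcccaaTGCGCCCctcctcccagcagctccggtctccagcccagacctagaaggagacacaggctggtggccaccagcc
Over the whole window of 300 bases, Mt2 held 4 matches, Mt1 and Slc30a10 held 3 each, Slc30a1 held 2 and Mtf1 held 0. The 3 matches in Slc30a10 include a pair on opposite strands that overlap, at -233 and -232 from the start. Of 32851 windows in the table, 25.7% held at least 1 match, 7.11% at least 2, 1.97% at least 3, and 170 windows at least 4. The annotated starts of Mt1 and Mt2 lie well before the start codon, at 96703211 and 96696748 in mm9, and a second Mt1 transcript starts 122 bases after the first. From 250 bases before the annotated start to the start codon, Mt1 held 5 matches in 472 bases and Mt2 held 7 in 480 bases. The shares given above are for windows of 300 bases, and none was counted for stretches of this length. The sites nearest to the coding sequence are given with 6 bases on each side, as read on the gene's strand in mm9, with the motif in capitals and the distance of its first base from the start codon.
Mt1 at 220 bases: gagctcTGCACTCcgcccg
Mt1 at 202 bases: gaaaagTGCGCTCggctct
Mt1 at 138 bases: cctgctGGGTGCAaaccct
Mt1 at 124 bases: acccttTGCGCCCggactc
Mt2 at 226 bases: cgggtcGTGCGCAggccca
Mt2 at 172 bases: aagggcGTGTGCAggcggc
Mt2 at 153 bases: gggggcGCGTGCAtggtgc
Mt2 at 119 bases: agctttTGCGCTCgaccca
Of these sites, 3 in Mt2 and 1 in Mt1 hold the motif on the opposite strand. The motif TTCNNNGAA, the core of a STAT site, was present in 8.30% of all windows and in none of the 5 member windows. A match describes the letters of a window and was not measured as binding.

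Gene counts per library summed to 4024632 to 4134070 with Pico, 12013453 to 12352473 with V4 and 12348864 to 12858237 with TruSeq, so Pico libraries carried the fewest counts. IL-1β was compared with saline in each kit by limma-voom with library totals, and a gene is called at a Benjamini-Hochberg adjusted p of at most 0.05 over all genes of the table. Over all genes the log2 fold change had a median of -0.12 with Pico, -0.22 with V4 and -0.17 with TruSeq, and with TMM scaling factors it was 0.016, -0.056 and -0.015. Calls of all genes were 38.6% higher with Pico, 32.7% with V4 and 36.0% with TruSeq, and with TMM factors 52.9%, 49.7% and 50.9%. The markers of hepatocytes were high in every library (35011 to 103506 CPM summed over 5 genes, where CPM is a gene's count scaled to the total gene counts of its library).

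Of the 7 members, Mt1, Mt2, Mtf1 and Slc39a14 were called higher and Slc30a1 lower in Pico and in TruSeq. In V4, Mt1, Mt2 and Slc39a14 were called higher and no member lower, with Slc30a1 just short of the threshold. Slc39a4 and Slc30a10 were called in no kit. Among all genes, 6.78% were called higher and 10.8% lower with Pico, 3.60% and 7.41% with V4, and 12.3% and 21.8% with TruSeq. Mt1, Mt2 and Slc39a14 were called higher in all 3 kits, as were 3.05% of the genes in all 3 tables.

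**Figure D1:**
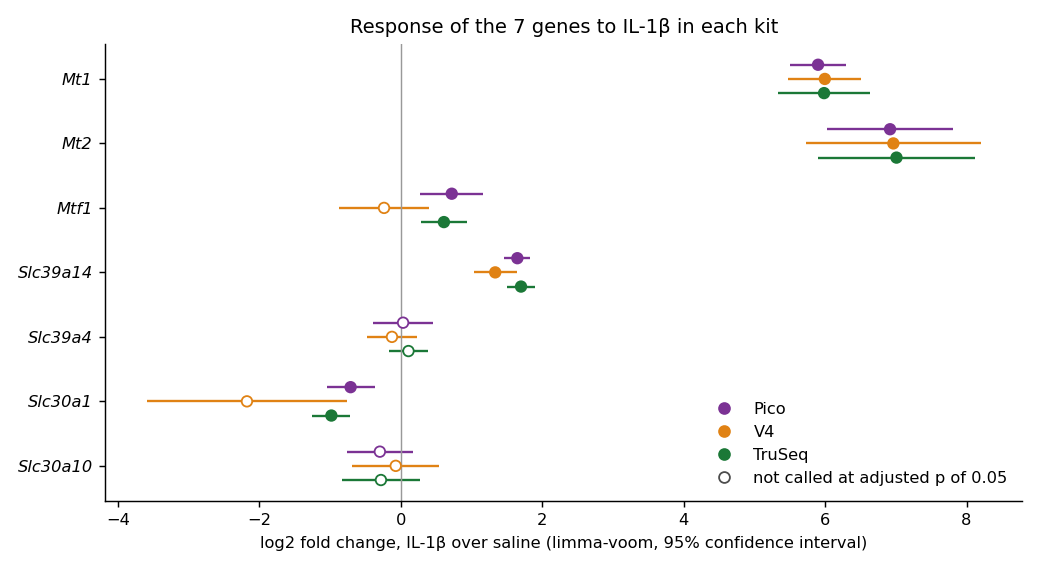
Log2 fold change of IL-1β over saline for the 7 genes in Pico, V4 and TruSeq, from limma-voom with 95% confidence intervals (3 mice per treatment). Filled points were called at an adjusted p of at most 0.05. Mt1 and Mt2 sit near 6 and 7 in all 3 kits, Slc39a14 between 1.34 and 1.70, and Slc30a1 below 0 in each kit, with the widest interval in V4.

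Mt1 rose about 60-fold in the livers of the mice given IL-1β, by nearly the same factor in each kit. In Pico the IL-1β libraries held 6719, 6821 and 7735 counts of Mt1 and the saline libraries 169, 88 and 117. In V4 these counts were 122159, 102393 and 106355 against 1618, 1100 and 2900. In TruSeq they were 19338, 22254 and 31147 against 447, 225 and 571. Every IL-1β library lay far above every saline library of its kit, and the groups did not overlap. Among all genes, groups did not overlap and IL-1β was higher for 11.0% with Pico, 8.71% with V4 and 14.5% with TruSeq. The fold was 59.7 with Pico (95% confidence interval 45.3 to 78.7), 63.8 with V4 (44.7 to 91.2) and 63.4 with TruSeq (40.4 to 99.4). On the log2 scale the changes were 5.90 ± 0.19 (SE), 6.0 ± 0.23 and 5.99 ± 0.29, with adjusted p of 3.46e-12, 1.89e-07 and 1.72e-06. In whole liver, more cells of a type and more RNA per cell cannot be told apart.

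Mt2 rose 121- to 129-fold by limma-voom, with a wider error than Mt1. The IL-1β libraries held 2349, 2355 and 2289 counts in Pico against 29, 6 and 39 in saline. In V4 they held 22976, 15696 and 14718 against 173, 36 and 429. In TruSeq they held 24154, 26029 and 28989 against 367, 62 and 406. The IL-1β mice were close to each other with Pico and TruSeq, while the saline mice spread widely, with the highest 6.50 times the lowest with Pico, 11.9 times with V4 and 6.55 times with TruSeq. The fold was 121 with Pico (95% confidence interval 65.5 to 223), 125 with V4 (53.0 to 294) and 129 with TruSeq (59.5 to 279). The adjusted p was 9.08e-09, 3.79e-05 and 1.24e-05. Leaving out saline mouse U9575 lowered the log2 change of Mt2 from 6.92 to 6.12 with Pico, from 6.96 to 6.0 with V4 and from 7.01 to 6.13 with TruSeq, and Mt2 was still called in each. The edgeR and DESeq2 fits gave lower values, 6.58 to 6.77, in the 3 kits.

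**Figure D2:**
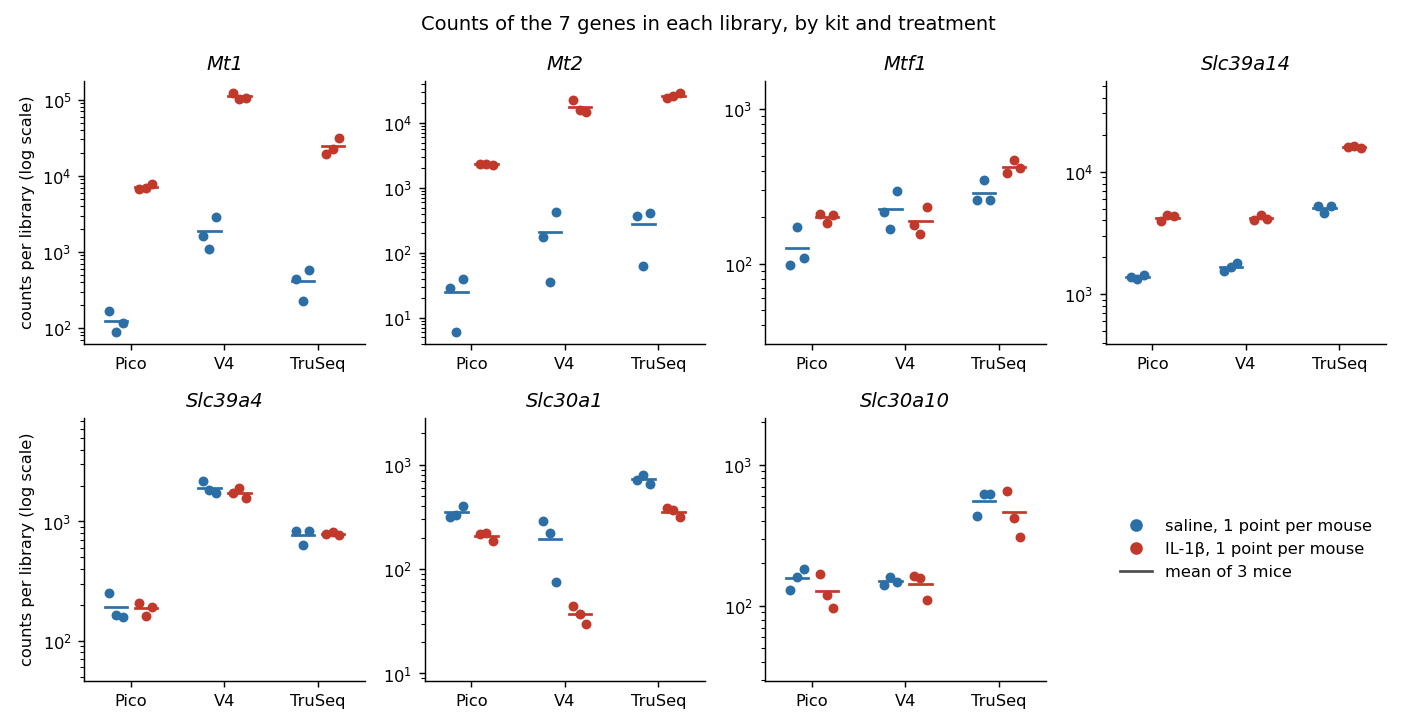
Counts of each of the 7 genes in every library (log scale), by kit and treatment, with 1 point per mouse and a line at the mean of 3 mice. The treatments are apart for Mt1, Mt2, Slc39a14 and Slc30a1 in every kit and for Mtf1 in Pico and TruSeq, and they overlap for Slc39a4 and Slc30a10.

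The saline mice kept 1 order at its lower end across kits. Mouse U9575 had the lowest count of both Mt1 and Mt2 in Pico, V4 and TruSeq. Mouse U9576 had the highest count of Mt2 in each kit, and of Mt1 in V4 and TruSeq, whereas mouse U9574 had the highest Mt1 count in Pico. Since each kit received RNA of the same livers, these are 3 readings of the same mice.

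Together the pair took a visible share of the libraries after IL-1β. In V4, Mt1 and Mt2 made up 1.06% ± 0.12 (SD, n = 3) of all gene counts after IL-1β, against 0.0171% ± 0.0090 in saline. In TruSeq the shares were 0.409% ± 0.069 and 0.00542% ± 0.0028, and in Pico 0.233% ± 0.013 and 0.00364% ± 0.0013. The exact permutation test of each kit gave p = 0.1, two-sided, the smallest that 3 against 3 mice allow. Ranked by counts, Mt1 was the 12th, 15th and 15th gene of the V4 libraries after IL-1β, and in saline it ranked 953, 1400 and 573. In TruSeq its rank was 55 to 77 after IL-1β and 2886 to 5855 in saline, and in Pico 60 to 67 and 3441 to 5511.

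The ratio of Mt1 to Mt2 counts within a library differed between kits. After IL-1β it was 2.86, 2.90 and 3.38 with Pico, 5.32, 6.52 and 7.23 with V4, and 0.801, 0.855 and 1.07 with TruSeq. After saline it was 5.83, 14.7 and 3.00 with Pico, 9.35, 30.6 and 6.76 with V4, and 1.22, 3.63 and 1.41 with TruSeq, for mice U9574, U9575 and U9576. Within every one of the 6 mice the ratio was highest in V4 and lowest in TruSeq. The ratio with V4 was 6.88 times that with TruSeq (log2 difference 2.78 ± 0.28, SD over 6 mice) and 2.02 times that with Pico (1.01 ± 0.19), and with Pico it was 3.41 times that with TruSeq (1.77 ± 0.39). An exact sign-flip permutation test over the 6 mice gave p = 0.0312 for each of the 3 pairs of kits (adjusted 0.0312), the smallest it can give, and was chosen after the values were seen. Between TruSeq and either other kit, the kit, amount of RNA, read length, sequencer and time of sequencing differ together and cannot be told apart. Pico and V4 shared the read length (150 bases) and the sequencer model. Kit and amount of RNA differ together between them and cannot be told apart. A fixed length of each gene cancels in a comparison of the ratio between kits. An effect of length that differs by kit was not tested.

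**Figure D3:**
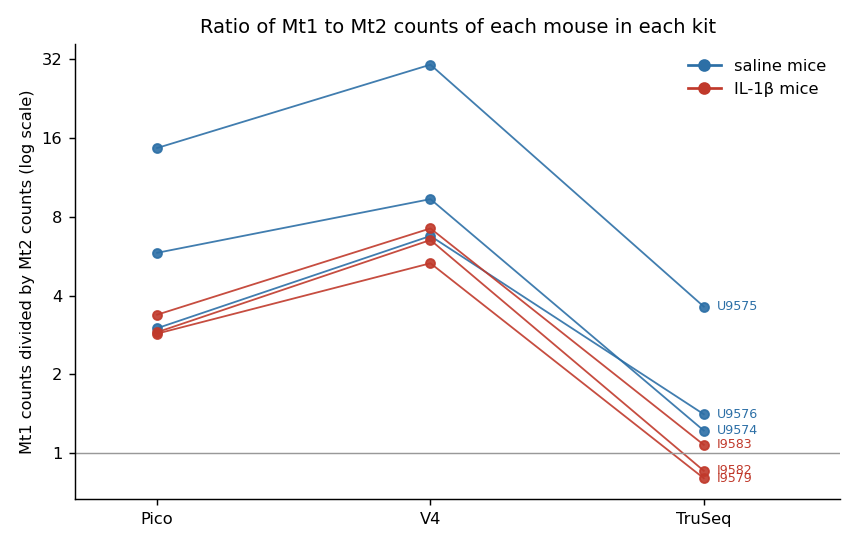
Mt1 counts divided by Mt2 counts in each library (log scale), with 1 line per mouse across Pico, V4 and TruSeq. Each line is highest in V4 and lowest in TruSeq, and saline mouse U9575 lies above the other mice in each kit.

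The fitted rise of Mt2 was larger than that of Mt1 in each kit. The log2 ratio of Mt1 to Mt2 after IL-1β minus that after saline was -1.07 with Pico, -0.98 with V4 and -1.03 with TruSeq. The groups overlapped in Pico and V4 (exact permutation p = 0.2, two-sided) and did not overlap in TruSeq (p = 0.1, the smallest possible). Averaged over the kits of a mouse, the log2 ratio was 1.37 ± 0.19 (SD, n = 3) after IL-1β and 2.39 ± 1.03 after saline, with an exact permutation p of 0.1, the smallest possible. Without saline mouse U9575, whose Pico library held 6 counts of Mt2, the differences were -0.46, -0.33 and -0.54. With 20 reads added to both genes they were -0.14, -0.71 and -0.92, and the value moved most with Pico, where saline libraries held 6 to 39 counts of Mt2. These comparisons did not reach 0.05, which this number of mice does not allow.

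Mt3 and Mt4, the metallothioneins known from brain and from stratified epithelia, were nearly absent. Mt3 had at most 1 count in a V4 or TruSeq library and was not in the Pico table, and Mt4 had at most 1 count in TruSeq and was in no other table. Neither was called.

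Mtf1, which encodes the zinc-sensing factor, rose in the stranded kits by a small factor. In Pico the IL-1β libraries held 210, 182 and 206 counts and the saline libraries 98, 173 and 109. In TruSeq they held 388, 467 and 417 against 258, 350 and 257. The groups were apart in both kits, although saline mouse U9575 lay close to the IL-1β mice in each. The fold was 1.65 in Pico (95% confidence interval 1.21 to 2.24, adjusted p = 0.0245) and 1.53 in TruSeq (1.22 to 1.91, adjusted p = 0.00931). The Pico call was lost when any 1 mouse other than U9575 was left out (adjusted p 0.0822 to 0.141), and the TruSeq call without I9582, U9574 or U9576 (0.050 to 0.0568). In V4 the counts were 177, 156 and 232 against 215, 167 and 295, and the groups overlapped (log2 change -0.24 ± 0.29 SE, adjusted p = 0.669). The difference in response between V4 and TruSeq was -0.85 on the log2 scale (95% confidence interval -1.51 to -0.18, adjusted p = 0.60), and between Pico and V4 0.96 (0.18 to 1.73, adjusted p = 0.801), so no difference between kits passed the test over all genes. Mtf1 shares 316 exon bases with 1110065P20Rik on the opposite strand. In V4 that gene held 231, 125 and 137 counts after IL-1β, against 87, 102 and 329 in saline. In TruSeq it held 107, 144 and 158 against 122, 130 and 150. V4 does not mark strand, so its reads of the shared bases cannot be assigned to one of the pair.

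Slc39a14, the gene of the importer that brings zinc, iron and manganese into hepatocytes, rose 2.52- to 3.25-fold. In Pico the IL-1β libraries held 3936, 4406 and 4321 counts and the saline libraries 1367, 1321 and 1422. In V4 they held 4057, 4445 and 4130 against 1557, 1674 and 1801. In TruSeq they held 15799, 16246 and 15661 against 5244, 4615 and 5294. The mice of a treatment lay close together, with the highest at most 1.16 times the lowest in any kit, and the treatments were far apart. The fold was 3.14 with Pico (95% confidence interval 2.76 to 3.56), 2.52 with V4 (2.04 to 3.11) and 3.25 with TruSeq (2.84 to 3.72). The adjusted p was 1.58e-09, 2.08e-04 and 2.44e-06. The response in V4 minus that in TruSeq was -0.37 on the log2 scale (95% confidence interval -0.66 to -0.07), with an adjusted p of 0.624, so this difference did not pass the test over all genes. Blocked by mouse, as a replicate block, it was -0.36, with an adjusted p of 0.493.

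Slc39a4, the gene of the importer of dietary zinc in the intestine, did not pass the test in any kit. In Pico the IL-1β libraries held 208, 163 and 193 counts and the saline libraries 250, 164 and 158. They were 1738, 1908 and 1566 against 2161, 1824 and 1732 in V4, and 791, 816 and 771 against 830, 632 and 828 in TruSeq. The treatments overlapped in each kit. The 95% confidence interval of the fold was 0.763 to 1.37 with Pico, 0.717 to 1.17 with V4 and 0.890 to 1.31 with TruSeq, which leaves room for changes of those sizes. The sign of the V4 value was negative with library totals (-0.12) and positive with TMM factors (0.045). Of 6 enterocyte markers listed, 4 were absent or held at most 3 counts with Pico, 3 with V4 and 3 with TruSeq. Fabp2 and Lgals4 were detected in each kit, Vil1 held at most 8 counts in any library and Lct at most 3. Their summed level was 20.5 to 36.5 CPM after IL-1β and 32.5 to 39.4 in saline with Pico, 36.0 to 71.7 and 65.0 to 85.9 with V4, and 37.2 to 52.9 and 57.4 to 77.9 with TruSeq. The part of other cell types in the level of Slc39a4 was not tested.

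Slc30a1, the gene of the zinc exporter of the plasma membrane, was lower after IL-1β. In Pico the IL-1β libraries held 219, 223 and 184 counts against 314, 328 and 404 in saline. In TruSeq they were 384, 365 and 316 against 714, 798 and 656. In V4 they were 44, 37 and 30 against 287, 222 and 75. The groups did not overlap in any kit, and saline mouse U9576 was the nearest to the IL-1β mice in V4 and TruSeq but the farthest from them in Pico. Among all genes, groups did not overlap and IL-1β was lower for 19.2% with Pico, 18.2% with V4 and 29.3% with TruSeq. Saline exceeded IL-1β by a factor of 1.64 in Pico and 1.97 in TruSeq (log2 change -0.71 ± 0.16 SE, adjusted p = 0.00506, and -0.98 ± 0.12, adjusted p = 2.61e-04). In V4 the factor was 4.52 (log2 change -2.18 ± 0.64 SE), with an adjusted p of 0.0528, so it was not called. Without saline mouse U9576 the V4 change was -2.77 with an adjusted p of 0.00482. The V4 gene was also called by edgeR (adjusted p = 0.00163), by DESeq2 (1.18e-04), with a filter on low counts (0.0402) and after thinning to the smallest library (0.0498). It was not called with TMM factors (-1.99, adjusted p = 0.0888) or without any 1 of the other 5 mice (0.122 to 0.179). The difference in response between Pico and V4 was 1.47 on the log2 scale (95% confidence interval 0.15 to 2.78, adjusted p = 0.850), and between V4 and TruSeq -1.19 (-2.50 to 0.11, adjusted p = 0.829). Blocked by mouse, the limma-voom differences were 1.64 and -1.36, with unadjusted p of 0.0302 and 0.0359 and adjusted p of 0.738 and 0.645. Slc30a1 shares 468 exon bases with 1700034H15Rik on the opposite strand, which held at most 4 counts in a V4 library and at most 16 in a TruSeq library.

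Slc30a10, the gene of an exporter known for manganese, did not pass the test in any kit. In Pico the IL-1β libraries held 168, 120 and 97 counts and the saline libraries 130, 161 and 183. They were 163, 157 and 110 against 141, 160 and 147 in V4, and 652, 421 and 306 against 430, 616 and 622 in TruSeq. The treatments overlapped in each kit. The 95% confidence interval of the fold was 0.589 to 1.13 with Pico, 0.622 to 1.46 with V4 and 0.561 to 1.21 with TruSeq. The order of the IL-1β mice was the same in each kit, with I9579 highest and I9583 lowest, and saline mouse U9574 was the lowest of its group in each kit. The sign of the V4 value was negative with library totals (-0.07) and positive with TMM factors (0.10). An opposite gene, Gm2061, which shares 533 exon bases with Slc30a10, held at most 7 counts in a V4 library.

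The difference in response between kits was tested for all genes over the 12 libraries of each pair of kits. It called 0 genes of 17207 for Pico and TruSeq, of 17147 for V4 and TruSeq and of 16395 for Pico and V4 by limma-voom, and 945 (5.49%), 1090 (6.36%) and 900 (5.49%) genes had an unadjusted p under 0.05. No member was therefore called different between kits. For Mt1 the difference between any pair of kits was at most 0.10 in size on the log2 scale, with intervals that reached 0.98, and for Mt2 at most 0.09, with intervals that reached 2.45. Without saline mouse U9576 the pair of Pico and V4 had 39 calls, Slc30a1 among them (adjusted p = 0.0178), and the pair of V4 and TruSeq had 57. All these fits took the libraries of a mouse as independent, so their intervals include the spread between mice that the kits share. In the limma-voom fit blocked by mouse, the Mt2 difference was -0.05 for Pico minus TruSeq (adjusted p = 0.981). It was -0.19 for V4 minus TruSeq (0.978) and 0.14 for Pico minus V4 (0.991).

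The members were put in order of level by CPM per kilobase of merged exon, within each kit. In saline TruSeq libraries Mt1 (43.1 ± 18.1, SD, n = 3), Mt2 (39.2 ± 26.5) and Slc39a14 (37.5 ± 2.87) had the highest means and overlapped. Slc39a4 (26.4 ± 3.99), Slc30a1 (10.8 ± 1.08), Slc30a10 (7.45 ± 1.41) and Mtf1 (2.72 ± 0.50) followed, each apart from the one before. The range of Mt2 (8.71 to 56.8) also overlapped those of Slc39a4 (21.8 to 29.0) and Slc30a1 (9.73 to 11.9). That of Mt1 (23.3 to 59.0) also overlapped that of Slc39a4. After IL-1β the TruSeq level of Mt2 was 3830 ± 354 and that of Mt1 2598 ± 658, with no overlap, and Slc39a14 followed at 122 ± 2.69. The saline order in Pico began with Mt1 (40.3 ± 13.5) and Slc39a14 (31.6 ± 1.11), which overlapped, and Mt2 (10.8 ± 7.38) was the fifth. After IL-1β the Pico level of Mt1 was 2333 ± 183 and that of Mt2 1039 ± 17.2. In V4 the level of Mt1 was 204 ± 97.9 in saline and 12106 ± 1080 after IL-1β, and that of Mt2 was 31.2 ± 28.9 and 2644 ± 654. Slc39a4 was the second member in saline V4 libraries (69.3 ± 9.07), above Slc39a14 (13.1 ± 0.77), whereas in Pico and TruSeq Slc39a14 was above Slc39a4. After IL-1β Slc30a1 was the lowest member in V4 (0.583 ± 0.107). With the longest transcript as the length, Slc39a14, whose merged exons span 10552 bases and longest transcript 5117, led the saline order in Pico and TruSeq and passed Slc39a4 after IL-1β in V4. The tables were normalized separately, so levels are set in order only within a kit.

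**Figure D4:**
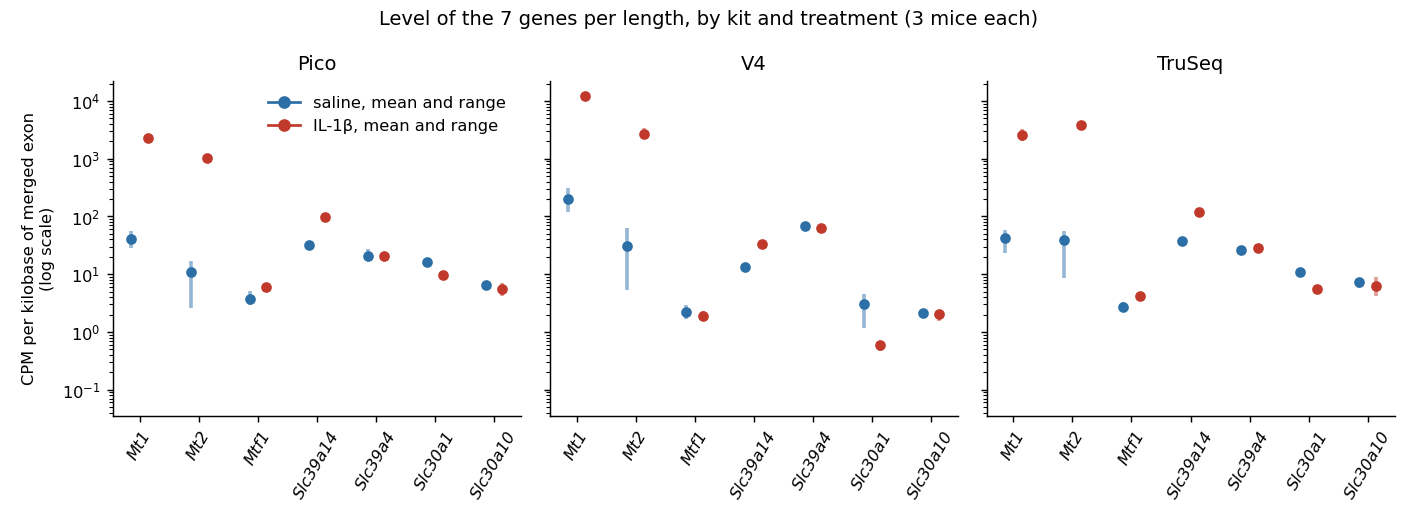
Level of each of the 7 genes per length (CPM per kilobase of merged exon, log scale) in Pico, V4 and TruSeq, with the mean and the range of 3 mice per treatment. After IL-1β, Mt1 and Mt2 lie far above the other members in each kit, with Mt1 the higher in Pico and V4 and Mt2 the higher in TruSeq.

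Among the zinc carriers, more were called higher than lower in each kit. Of the 14 ZIP and 10 ZnT carriers listed, members included, 22 were in the Pico table, 22 in V4 and 23 in TruSeq. In Pico 5 were called higher and 1 lower, in V4 3 and 1, and in TruSeq 8 and 4. Of all genes 6.78%, 3.60% and 12.3% were called higher and 10.8%, 7.41% and 21.8% lower. The lower calls were Slc30a1 in Pico, Slc39a11 in V4, and Slc30a1, Slc39a11, Slc39a8 and Slc30a9 in TruSeq. With TMM factors the calls were 6 higher and 1 lower, 3 and 0, and 9 and 1, and Slc30a1 was then the one carrier called lower, in Pico and TruSeq. The median log2 change of the carriers was 0.23 with Pico, -0.07 with V4 and 0.07 with TruSeq, beside the medians of all genes given above.

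Among the importers, Slc39a10, a zinc importer of the plasma membrane, rose in Pico from 13, 54 and 22 counts in saline to 119, 101 and 128 after IL-1β (log2 change 2.21 ± 0.38 SE). In TruSeq it rose from 57, 61 and 49 to 251, 230 and 269 (2.20 ± 0.16). In V4 it had 18, 15 and 3 counts against 36, 57 and 138 (2.74 ± 0.86), with an adjusted p of 0.0656. Slc39a1, another importer of the plasma membrane, rose with Pico by 0.80 on the log2 scale and with TruSeq by 1.02, and was 0.80 with V4 with an adjusted p of 0.222. Slc39a11 was called lower in V4 (-0.83) and TruSeq (-0.45) with library totals and in neither with TMM factors (adjusted p of 0.0811 and 0.0749), and it was 0.03 in Pico. The remaining 9 ZIP genes of the list, outside Slc39a4 and Slc39a14, were called in at most 1 kit.

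Among the ZnT carriers, Slc30a5 and Slc30a7, which bring zinc into the early secretory pathway, rose in all 3 kits. Slc30a5 held 2355, 2351 and 2078 counts after IL-1β with TruSeq against 821, 888 and 650 in saline, and its log2 change was 1.42 with Pico, 1.18 with V4 and 1.58 with TruSeq. Slc30a7 held 895, 1124 and 904 against 423, 420 and 454 in TruSeq, and its log2 change was 0.98, 1.10 and 1.21. In V4 the adjusted p was 0.00516 for Slc30a5 and 0.0486 for Slc30a7, just under the threshold. Both had no overlap between treatments in any kit. Groups did not overlap, with IL-1β higher, for 11.0% of all genes with Pico, 8.71% with V4 and 14.5% with TruSeq, each kit taken alone. Slc30a1 was the ZnT gene called lower in more than 1 kit, and Slc30a9 was called lower in TruSeq alone (-0.34), where it was not called with TMM factors (adjusted p of 0.192). Slc30a2 was in no table, and Slc30a3 and Slc30a8 held at most 30 counts in any library.

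**Figure D5:**
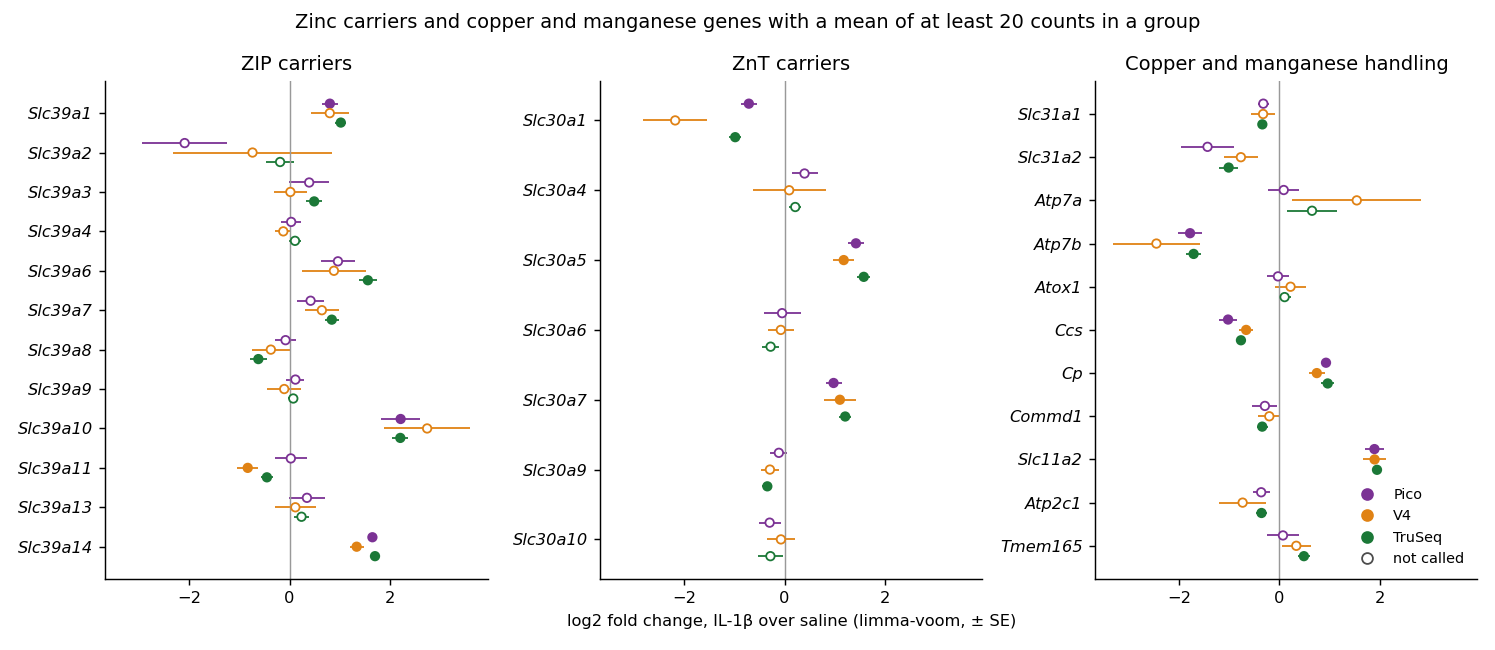
Log2 fold change of IL-1β over saline (limma-voom, ± SE) for listed ZIP carriers, ZnT carriers and copper and manganese genes that averaged 20 counts or more in a group, in Pico, V4 and TruSeq. Filled points were called. Slc39a10, Slc39a14, Slc30a5, Slc30a7, Cp and Slc11a2 are among the genes above 0 in all 3 kits, and Slc30a1, Ccs and Atp7b among those below 0.

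Of 11 genes listed for copper and manganese handling, 2 were called higher and 2 lower with Pico, 2 and 1 with V4, and 3 and 6 with TruSeq. The shares of all genes called higher and lower were 6.78% and 10.8%, 3.60% and 7.41%, and 12.3% and 21.8%. With TMM factors the calls of the list were 2 and 2, 2 and 0, and 3 and 3. Slc11a2, which encodes the divalent metal transporter of endosomes and the gut, rose in all 3 kits by 1.89, 1.89 and 1.94 on the log2 scale. Its counts in TruSeq were 2398, 2406 and 2110 after IL-1β and 673, 600 and 583 after saline. Cp, which encodes the copper-binding ferroxidase ceruloplasmin, rose by 0.93 with Pico, 0.74 with V4 and 0.96 with TruSeq. Ccs, which encodes the copper chaperone of superoxide dismutase, was called lower in all 3 kits (-1.02, -0.66 and -0.77), as were 5.35% of the genes in all 3 tables, and in V4 it had an adjusted p of 0.0591 with TMM factors. Atp7b, which encodes the ATPase that exports copper into bile, fell in Pico and TruSeq (-1.78 and -1.71), and in V4 was -2.45 with an adjusted p of 0.101. The median log2 change of the list was -0.29 with Pico, -0.20 with V4 and -0.34 with TruSeq.

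Genes with the pattern most like that of Mt1, Mt2 and Slc39a14 were sought among 8960 genes, by Pearson's r of log2(CPM + 1) centred by kit over the 18 libraries. The libraries form a cluster for each treatment, so r describes that separation, and no test was made. The 3 nearest to Mt1 were Saa2, Saa1 and Ptpn1 (r of 0.998, 0.998 and 0.997), and the 3 nearest to Mt2 were Saa1, Mt1 and Saa2 (0.993, 0.991 and 0.988). Saa1 and Saa2 encode serum amyloid A proteins and are close paralogs, so reads may be split between them. Ptpn1, a tyrosine phosphatase gene, rose by 2.16 with Pico, 2.22 with V4 and 2.32 with TruSeq on the log2 scale. The 3 nearest to Slc39a14 were Gm10309, Orm1 and Hp (0.994, 0.992 and 0.992). Gm10309 held 92.7 counts on average after IL-1β in Pico and 0 in saline. Orm1, which encodes an acid glycoprotein of plasma, rose by 2.08, 2.04 and 2.12, and Hp, which encodes haptoglobin, by 1.88, 1.88 and 2.19. With 20 CPM added instead of 1, 6 of these 9 pairs were named again.

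Markers of other cells moved with the treatment. The summed level of 5 neutrophil markers was 21.0 to 31.1 CPM after IL-1β and 0.242 to 1.72 after saline with Pico, 39.8 to 72.2 and 2.07 to 4.25 with V4, and 35.7 to 73.6 and 1.56 to 2.77 with TruSeq. Of these 5, S100a8, S100a9 and Retnlg were called higher in each kit, while Mpo was in no table and Ly6g held at most 2 counts, in TruSeq. The summed level of 5 hepatocyte markers was 42680 to 48651 after IL-1β and 57025 to 69629 after saline with Pico, with 5 called lower, and 3 were called lower with V4 and 3 with TruSeq. Kupffer cell markers were called lower for 3, 2 and 4 of 5 genes and higher for 0, 0 and 1 in Pico, V4 and TruSeq. Markers of sinusoidal endothelium were called lower for 3, 2 and 4 of 5 genes and higher for 1, 0 and 1, and their summed level with TruSeq was 58.4 to 80.5 CPM after IL-1β against 135 to 154 in saline. Stellate cell markers were called lower for 3, 2 and 4 of 5 genes and higher for 0 in each kit. Cholangiocyte markers were called higher for 1, 0 and 2 of 5 genes and lower for 0, 0 and 1. Of 5 pancreatic acinar markers, 1 was in the V4 and TruSeq tables and none in Pico, with a summed level of at most 0.414 CPM. All these marker calls were made with library totals. Of all genes, 6.78%, 3.60% and 12.3% were then called higher and 10.8%, 7.41% and 21.8% lower. The part of these cells in the members' values was not tested.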

How the data were processed

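RNA-Seq of liver RNA from 6 mice in 3 kits gave 18 libraries. The authors aligned the reads with GSNAP to mm9, used their PORT pipeline to remove ribosomal reads and to resample each kit to an equal depth, and deposited whole-number counts per gene, with V4 counted over both strands and the stranded kits over the sense strand. The tables were normalized separately. The study prepared Pico libraries more than once, and the run in the table is not given in the sources used here. The labels state that livers were snap-frozen and the methods that they were kept in RNAlater.

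Groups came from the sample labels. The members and lists were chosen with earlier results of these data known. Each kit was fitted with limma-voom (limma 3.58.1, R 4.3.3) on library totals, over all genes with at least 1 count, with Benjamini-Hochberg adjustment. Responses of 2 kits were compared by the interaction of kit and treatment over 12 libraries. Ratios and shares were compared with exact permutation tests, for which 3 against 3 mice allow no p below 0.1. Alternatives were edgeR (4.0.16) and DESeq2 (1.42.0), TMM factors, a minimum of 10 counts in 3 libraries, no filter, thinning to 4024632 counts, thresholds of 0.1 and 0.01, leaving out each mouse, and the mouse as a block. Fits were tested on simulated data. Levels used merged exons of the GENCODE annotation of mm9. Copies were sought with blastn 2.17.0. Summaries used Python 3.11.15 with pandas 2.3.3, scipy 1.17.1 and matplotlib 3.10.9. Depth limits the precision of low counts, and Pico libraries had the fewest counts. The SE of the log2 change was nevertheless larger in V4 than in Pico for each member but Slc39a4. It was 0.64 in V4 and 0.16 in Pico for Slc30a1, and 0.16 and 0.20 for Slc39a4.

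Named genes were the members, listed genes called in 1 direction in at least 2 kits, the 3 genes most like Mt1, Mt2 and Slc39a14 among genes that averaged 20 counts or more in each kit, and markers. Slc39a8, Slc30a9, Slc30a3, Slc30a8 and the genes on the strand opposite members were named after their values were seen. The RNA of a mouse was split between the kits, so its number pairs the libraries. Over 8960 genes, deviations from the group means of the same mouse correlated at 0.194 to 0.446 (Pico with TruSeq), 0.168 to 0.458 (V4 with TruSeq) and 0.0796 to 0.234 (Pico with V4), and at -0.360 to -0.0327 for different mice. Deviations within a group cancel by construction, so positive values for the same mouse force those for different mice to be negative on average. Libraries of a group differed by more than sampling noise (chi-square at least 7.04 per degree of freedom), so none was a second sequencing of another. A second preparation of the same RNA adds noise of its own, so this check cannot exclude one.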

Additional observations from a re-analysis of the deposited data

How the results depend on the processing

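The calls of Mt1, Mt2 and Slc39a14 in each kit, and of Slc30a1 in Pico and TruSeq, held under all 12 alternatives to each fit with the threshold of 0.05, and no called value changed sign. Members called higher numbered 3 to 4 in Pico and TruSeq when each mouse was left out. Members called lower in V4 numbered 0 in the reported fit and 1 with edgeR, DESeq2, the filter of 10 counts, thinning or a threshold of 0.1, and 0 to 1 when each mouse was left out (1 without saline mouse U9576). Zinc carriers called higher in V4 numbered 3, against 4 with edgeR, DESeq2 or a threshold of 0.1 and 2 at 0.01. They numbered 2 to 3 when each mouse was left out. Zinc carriers called lower in V4 numbered 1, against 2 with DESeq2, the filter or thinning, 3 at a threshold of 0.1, 0 with TMM factors or at 0.01, and 0 to 2 when each mouse was left out. In TruSeq they numbered 4, against 1 with edgeR, DESeq2, TMM factors or a threshold of 0.01, 2 with thinning, and 2 to 3 when each mouse was left out. Copper and manganese genes called lower in TruSeq numbered 6, against 3 with edgeR, DESeq2, TMM factors or a threshold of 0.01 and 3 to 5 when each mouse was left out. In Pico they numbered 2, against 4 with the filter or at 0.1. In V4 they numbered 1, against 0 with edgeR, TMM factors or at 0.01 and 0 to 1 when each mouse was left out, and those called higher numbered 2, against 1 at 0.01 and 1 to 2 when each mouse was left out. Fewer genes tested and fewer mice are part of the filter and of leaving out a mouse, and otherwise the cause was not tested.

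The mouse as a replicate block changed no call of a member in the differences between kits (0 called for each pair), and the log2 ratio of Mt1 to Mt2 averaged over the kits of a mouse differed by -1.02 (exact permutation p = 0.1). Members called different between Pico and V4 numbered 0 to 1 when each mouse was left out. With 20 reads added, the differences of the log2 ratio were -0.14 (Pico), -0.71 (V4) and -0.92 (TruSeq). The rise in the share of Mt1 and Mt2 was 0.283 percentage points in Pico, 1.28 in V4 and 0.493 in TruSeq without the 10 most abundant genes in the total, against 0.230, 1.04 and 0.403. With the longest transcript as length, 2 members changed place in the order in Pico saline libraries, 4 in V4 after IL-1β and 3 in TruSeq saline libraries. All genes called in Pico numbered 3179, and 1765 to 2603 when each mouse was left out, in V4 1986 and 908 to 2093, and in TruSeq 6614 and 5114 to 5606.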
